A study of Homo sapiens with 18 samples.

Results

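The p50 knockout was set directly against the p52 knockout in the human line GM12878, a lymphoblastoid line made from B cells by Epstein-Barr virus (EBV). These are the knockouts of the 2 NF-kB subunits that cells make from longer precursors. The members were the 3 libraries labelled p50KO and the 3 labelled p52KO, 6 of the 18 libraries of polyadenylated RNA in the series, and 3 libraries with a non-targeting guide gave the reference level. The other 9 libraries, knockouts of RelA, RelB and cRel, entered only the shared estimate of spread. Of 17155 genes in the deposited table, the 12381 with a mean of at least 10 over all 18 libraries were tested.

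Every group carried the genotype label wildtype LMP1 and was made by lentiviral transduction of a guide RNA, then selected for 5 days in puromycin at 3 µg/ml, with loss of the subunit checked by immunoblot, per the labels' protocols. The groups used here therefore differ in the guide: against p50 (gene NFKB1), against p52 (gene NFKB2), or without a target. The labels call the 3 libraries of a group biological replicates. The sources used here do not give whether they were separate cultures from transduction on, whether the cells were pools or clones, or how many guides each gene had. A p-value below is therefore set against the spread among libraries of a group, which may be technical. In bulk RNA, fewer cells of a type and less RNA per cell cannot be told apart.

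NF-kB proteins bind DNA as pairs of subunits. NFKB1 encodes p105, which holds other subunits in the cytoplasm until its first part is released as p50, and NFKB2 encodes p100, which is cut to p52 after signals such as CD40 or BAFF-receptor ligation reach the kinase NIK. Neither p50 nor p52 carries its own activation domain: each acts with RelA, RelB or cRel, or as a homodimer that can repress or work with the nuclear proteins BCL3 and IkB-zeta. In EBV-transformed B cells the viral membrane protein LMP1 mimics CD40 and drives both routes, the canonical one that frees p50 pairs and the non-canonical one that makes p52.

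The libraries carried the B-cell markers that the line should have. Over the 9 libraries of the 3 groups MS4A1 (CD20) stood at 21630 to 25220 normalised reads and PAX5 at 4197 to 5899. Recovered depth was 24.4, 20.3 and 26.6 M reads in p50 libraries 1, 2 and 3, 18.4, 18.7 and 30.5 M in p52 libraries, and 20.9, 23.5 and 37.5 M in the controls. Mitochondrial transcripts took 3.55%, 1.85% and 3.30% of reads in p50 libraries, 4.56%, 3.45% and 3.30% in p52 libraries and 3.68%, 4.22% and 5.03% in the control. P52 library 3 stood apart within its group: across genes, which are not independent, its deviation from the group mean had a rank correlation of -0.44 with transcript length, against 0.29 and 0.32 in p52 libraries 1 and 2. Control 3, part of the reference level, stood apart on the same measure, at -0.53 against 0.29 and 0.43 in controls 1 and 2, and the p50 libraries lay at -0.07, -0.04 and 0.14. Calls of named genes that change without a library are given with and without it where this was checked. So are larger shifts of list counts between the knockouts. Calls against the control were not checked in this way for genes named only as members of the longer lists. Those calls, and list counts against the control, are from the fit of all libraries unless stated.

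The targeted genes were examined first. NFKB1 (ENSG00000109320) stood at 4748, 4666 and 4640.4 normalised reads in p50 libraries 1, 2 and 3, at 6983, 6339.8 and 5924 in the p52 knockout and at 7418, 6895 and 6885 in the control. All 3 p50 libraries lay below the other 6. Between the knockouts it was 1.37-fold lower in p50 (log2 difference -0.45 with SE 0.06 and adjusted p = 1.1e-05 by limma). NFKB2 (ENSG00000077150) stood at 6508, 6171 and 6281 in the p52 knockout, at 8776, 9328 and 8746 in p50 libraries and at 8578, 8698 and 8422 in the control. Here the 3 p52 libraries were the low ones, and NFKB2 was 1.42-fold higher in p50 than in p52 (log2 difference 0.50 with SE 0.06 and adjusted p = 1.1e-06). The 2 targeted genes were thus called in opposite directions, each lower where its own guide was used, and most of their mRNA remained. Guide-made insertions or deletions need not remove the transcript.

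**Figure D1:**
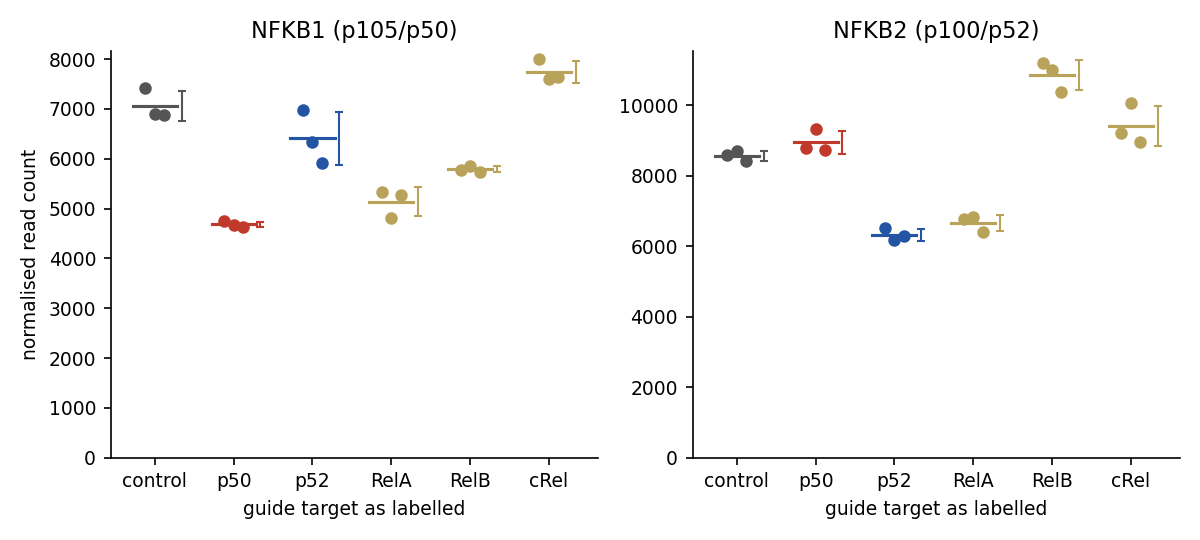
Normalised read count of NFKB1 (left) and NFKB2 (right) in each of the 18 libraries, by the subunit named in the label; points are libraries, bars the group mean and brackets ± 1 SD (n = 3). NFKB1 averaged 4685 in p50 and 6416 in p52 libraries, while NFKB2 averaged 8950 and 6320. The 3 gold groups are shown for scale, and NFKB2 in the RelA knockout (6671) lay near the p52 level. NFKB1 in the RelA (5138) and RelB (5794) knockouts lay between the p50 and p52 means, so low levels also occurred without the gene's own guide.

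The other 3 subunit genes did not pass the test between the knockouts. RELB stood at 3894 ± 196 (mean ± SD, n = 3) in p50 and 4260.3 ± 49.4 in p52, and RELA at 2392 ± 73.4 and 2689 ± 289 (adjusted p = 0.14 and 0.072 by limma). REL, which encodes cRel, read 1154, 1065 and 1078 in p50 and 1845, 1676 and 1097 in p52, and 1554, 1717 and 856 in the control. P52 library 3 and control 3 were the low libraries of their groups for REL. Without p52 library 3, REL was lower in p50 (log2 fold change -0.68, adjusted p = 0.0071) and so was RELA (-0.25, adjusted p = 0.0027). Over the 18 settings tried the adjusted p ran from 0.0071 to 0.30 for REL and from 0.0027 to 0.35 for RELA.

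Between the 2 knockouts 2749 genes were called by limma at an adjusted p under 0.05, 22.2% of those tested. By direction 1387 (11.2%) were higher and 1362 (11%) lower in p50. Without p50 library 1 the counts were 883 and 1040, and in a fit of these 6 libraries alone 826 and 1072. EdgeR on the recovered reads called 23.2% (11.7% higher, 11.5% lower) and DESeq2 23.2% (11.5% higher, 11.7% lower). Most differences were small: the median fold of a called gene was 1.28. By size the directions were unequal. Of the 292 genes called at 2-fold or more, 240 were lower in p50 and 52 were higher. In 94.03% of called genes all 3 libraries of one knockout lay on one side of all 3 of the other. The calls were made on the same libraries, so this share adds no separate support. The share over all genes tested is not given here. Against the control 36.7% of genes were called in the p50 knockout (17% higher, 19.6% lower), and 50.8% for the p52 knockout (24.5% higher, 26.4% lower); both comparisons use the same 3 control libraries, so their values below are set side by side only.

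**Figure D2:**
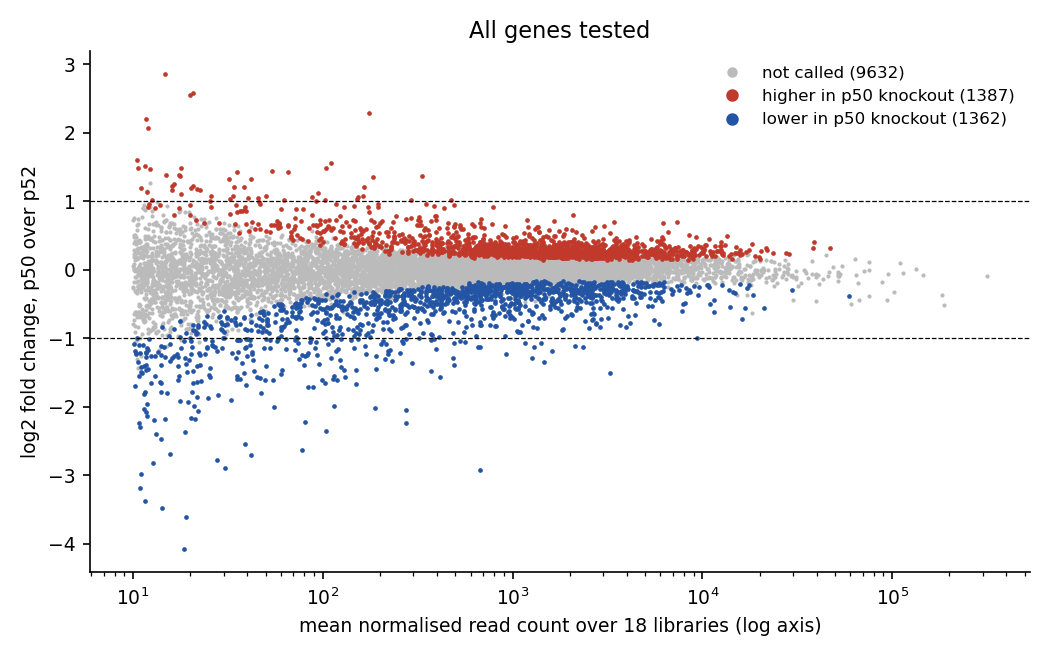
Each point is 1 of the 12381 genes tested, with its mean normalised read count over 18 libraries on a log axis against its log2 fold change, p50 over p52 knockout; dashed lines mark 2-fold. Red points are the 1387 genes called higher in p50 and blue points the 1362 called lower; beyond the dashed lines blue points (240) outnumber red ones (52).

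Of the 6 genes of the IkB family, inhibitors and nuclear partners of NF-kB, 3 were lower in p50, 1 was higher and 2 were not called. Over all genes tested 11% were lower and 11.2% higher, and every list count between the knockouts below is to be read against these shares. The lists were chosen with earlier results of these data known. The shares therefore give a scale only, and no list count is an independent test. NFKBIA, whose product IkB-alpha is the classical inhibitor and itself an NF-kB target, stood at 3983, 4202 and 3779 in p50, 5156, 4991 and 5182 in p52 and 6812, 6730.1 and 7313 in the control. The 3 groups did not overlap, with p50 lowest and the control highest (log2 difference -0.36 with SE 0.07 and adjusted p = 0.00048 between the knockouts). NFKBIE, the inhibitor IkB-epsilon, read 2413, 2745 and 2326 in p50 and 3237, 2965 and 3409.8 in p52 (log2 difference -0.36 with SE 0.07 and adjusted p = 0.00096), and the control, at 2346, 2082 and 2270.5, lay nearer to p50. BCL3, a nuclear family member that binds p50 and p52 homodimers, averaged 972 ± 131 in p50 and 1212 ± 79.3 in p52 (adjusted p = 0.0089, and 0.061 without p50 library 2, the highest over the settings tried, which went down to 0.0014).

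NFKBIB, the inhibitor IkB-beta, went the other way, at 1828 ± 188 in p50 and 1522 ± 107 in p52 (adjusted p = 0.035). Its groups overlapped, and the call was lost without p50 library 1 (adjusted p = 0.086), p50 library 2 (0.17), p52 library 1 (0.10) or p52 library 2 (0.12). Over all settings it ran from 0.0088 to 0.17. The nuclear members NFKBIZ and NFKBID differed by -0.05 and -0.07 on the log2 scale (adjusted p = 0.75 and 0.73). Both knockouts were called lower than the control for NFKBIZ, with log2 differences of -0.48 in p50 and -0.43 in p52, with adjusted p = 0.00029 and 0.00039 by limma.

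Partners of the precursors, and enzymes that process them, made a list of 8 genes: 3 were lower in p50, 1 was higher and 4 were not called. MAP3K8, the kinase TPL2, and TNIP2, also called ABIN-2, are bound and stabilised as proteins by p105. TNIP2 stood at 1620.5, 1818 and 1589 in p50 and 2311, 2330.2 and 2492 in p52 (log2 difference -0.51 with SE 0.07 and adjusted p = 1.7e-05), with the control, at 1789.7, 1667 and 1787, in the range of p50. MAP3K8 stood at 1378, 1554 and 1398 in p50 and 1840, 1916 and 1978 in p52 (log2 difference -0.41 with SE 0.07 and adjusted p = 0.00019), with 1744, 1499 and 1637 in the control. For both genes every p52 library lay above every p50 library.

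UBAC1, a subunit of the ligase that marks p105 for processing, averaged 1603 ± 43.8 in p50 and 1902 ± 143 in p52 (adjusted p = 0.014, 0.055 without p50 library 3 and 0.072 without p52 library 3, with a range of 0.0020 to 0.072). RNF123, the other subunit of that ligase, differed by 0.14 (adjusted p = 0.15). CHUK, the kinase IKK-alpha that licenses p100 for processing, was 1384 ± 34.04 in p50 and 1204 ± 39.1 in p52 (adjusted p = 0.031). This call was lost on leaving out any p50 library (0.053, 0.090 and 0.069 for libraries 1, 2 and 3) or p52 library 1 (0.10) or 2 (0.059), with a range of 0.016 to 0.10. MAP3K14, which encodes NIK, averaged 1355 ± 46.0 in p50 and 1377 ± 197 in p52, and the ligase genes BTRC and FBXW11 differed by -0.04 and 0.02 on the log2 scale; none of the 3 was called (adjusted p = 0.93, 0.76 and 0.83).

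Several of these genes hold a match to the 10-base kB consensus, the sequence that NF-kB pairs bind, in the 250 bases before their start. RefSeq promoters (GRCh38.p14) were searched on both strands, and matches at the same position on both strands were counted as a single site. A set of 3 is shown because their genes encode a targeted subunit, the classical inhibitor and the p105-bound kinase. These 3 were lower in p50, but matches were also found before the starts of REL, RNF123 and NFKBIZ, which were not called between the knockouts, so the set does not stand for all genes with a match. The capitals mark the match, each line is the stretch around it and reads 5′ to 3′ in the direction of the gene, and the windows are chr4:102501270-102501358 on the plus strand (NFKB1), chr14:35404781-35404870 on the minus strand (NFKBIA) and chr10:30433952-30434020 on the plus strand (MAP3K8). The matches begin 49, 81 and 29 bases before the start.
NFKB1: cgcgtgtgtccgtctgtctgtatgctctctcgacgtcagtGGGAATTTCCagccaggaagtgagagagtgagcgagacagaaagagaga
NFKBIA: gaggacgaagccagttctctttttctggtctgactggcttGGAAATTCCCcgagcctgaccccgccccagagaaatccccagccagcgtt
MAP3K8: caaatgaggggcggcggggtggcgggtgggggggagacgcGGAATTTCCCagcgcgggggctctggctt

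A match was found in 9.96% of 35116 RefSeq promoters and in 11.9% of the 13706 promoters of tested genes, of which 9330 had an entry. It was present in 15.5% of the promoters of genes lower in p50, 10.6% of those of genes higher in p50 and 11.6% of those of genes not called. Among genes called at 2-fold or more the shares were 17.2% (42 of 244 promoters) for those lower and 8.96% (6 of 67) for those higher in p50. A match is a description of the letters only, and genes can have several promoters.

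Receptors and adaptors that feed the non-canonical route were lower in p50 in 7 of 13 tested members and higher in 2. In a fit of the 6 libraries alone 4 were lower. TNFRSF11A, the receptor RANK, stood at 493, 564 and 509.7 in p50, 941, 996 and 839 in p52 and 958, 800.5 and 742 in the control, so p50 alone was low (1.77-fold lower than p52; log2 difference -0.82 with SE 0.09 and adjusted p = 6.3e-07 by limma). BIRC3, the ubiquitin ligase cIAP2 that keeps NIK low, read 5989.8, 6369.6 and 6580.3 in p50 and 8753, 8872 and 9035 in p52 (log2 difference -0.49 with SE 0.06 and adjusted p = 1.4e-06). The control, at 7629.7, 7550.3 and 7302, lay between them and overlapped neither. CD40, the receptor that LMP1 mimics, was 2824 ± 222 in p50, 3663 ± 293 in p52 and 2309 ± 123 in the control, lower in p50 than in p52 (adjusted p = 0.00044), and both knockouts were called higher than the control (0.29 and 0.66, adjusted p = 0.0027 and 1e-07).

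TNFRSF13B, the BAFF and APRIL receptor TACI, was the reverse: 4493, 4518 and 4384 in p50, 2749, 2727 and 2821 in p52 and 3339, 3287 and 3981 in the control. It was 1.61-fold higher in p50 than in p52 (log2 difference 0.69 with SE 0.07 and adjusted p = 3.5e-07 by limma), with the control between. Without p50 library 1 the list held 1 higher member in place of 2. Of 17 tested kinases and brakes of the canonical route 2 were lower in p50 and 0 higher (0 by edgeR and DESeq2, 1 at an unadjusted p under 0.05 against 17.8% of all genes, and 1 without p52 library 1). OTULIN, which removes linear ubiquitin chains, averaged 1834 ± 49.5 in p50 and 2317 ± 199.9 in p52 (adjusted p = 0.00061). MALT1, the paracaspase of antigen-receptor signalling, averaged 2234 ± 171 and 2722 ± 182 (adjusted p = 0.0052).

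NF-kB targets of EBV-transformed B cells were lower in p50 in 27 of 45 tested members and higher in 6, against 11% and 11.2% of all genes. The median log2 fold change of the list was -0.31, against 0.02 over all genes tested. Averaged over the list, log2 levels relative to the control mean were -0.10, -0.07 and -0.10 in p50 libraries 1, 2 and 3 and 0.15, 0.16 and 0.21 in the p52 libraries. Control libraries lay at -0.00, -0.04 and 0.04, so the p52 libraries were the highest. Against the control 10 members were called higher and 16 lower in p50 (22.22% and 35.56%, against 17% and 19.6% of all genes). In p52, 20 were higher and 11 lower (44.44% and 24.44%, against 24.5% and 26.4%). The lower share in p52 was thus near that of all genes.

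CD44, the hyaluronan receptor, was lowest in p50 at 809.8, 684 and 690.2, with 1733, 1602 and 1453 in p52 and 1507, 1396 and 1438 in the control. It was 2.19-fold lower in p50 than in p52 (log2 difference -1.13 with SE 0.07 and adjusted p = 3.7e-10 by limma), and p52 did not differ from the control by the test (0.14, adjusted p = 0.13). CD86, a costimulatory ligand for T cells, had the same order, at 849, 882 and 917 in p50, 1288, 1299 and 1402 in p52 and 1204, 1164 and 1315 in the control (log2 difference -0.59 with SE 0.06 and adjusted p = 7.1e-07). CCL22, a chemokine that attracts T cells, fell below the control in both knockouts and lower in p50: 1367, 1403 and 1295 in p50, 2117, 2111 and 2134 in p52 and 2831, 2353 and 2494 in the control (log2 difference -0.65 with SE 0.08 and adjusted p = 1.7e-06 between the knockouts). The 3 groups of CCL22 did not overlap.

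Many chemokines and cytokines were too low to test: of 39 entries 31 were in the table and 19 passed the filter on low values, 11 of them lower in p50 and 3 higher (median -0.41). LTB, which encodes lymphotoxin beta, stood at 140.2, 217 and 142 in p50, 292, 387 and 458 in p52 and 143, 172 and 163 in the control. It was 2.28-fold lower in p50 than in p52 (log2 difference -1.19 with SE 0.16 and adjusted p = 7.5e-06 by limma), and here p50 lay at the level of the control (0.04, adjusted p = 0.88). The chemokine CCL20 was likewise high in p52 alone, at 100.4, 84.3 and 107 in p50, 197, 189.6 and 253 in p52 and 93.7, 87.7 and 117 in the control (log2 difference -1.12 with SE 0.15 and adjusted p = 7.6e-06 between the knockouts). TNFSF13B, the B-cell survival factor BAFF, was 140.2 ± 4.69 in p50, 246 ± 19.2 in p52 and 124 ± 9.41 in the control, 1.74-fold lower in p50 than in p52 (adjusted p = 3.3e-05). For LTB, CCL20 and TNFSF13B only p52 was called against the control (1.23, 1.09 and 0.98, all higher).

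A kB match was held by 16 of 59 promoters of the NF-kB targets (27.1%; 35 genes) and by 10 of 21 promoters of the chemokines and cytokines (47.6%; 16 genes). A set of 4 is shown for genes whose levels are given above: BIRC3 (chr11:102317245-102317398 on the plus strand), CCL22 (chr16:57358557-57358647 on the plus strand), LTB (chr6:31582462-31582551 on the minus strand) and CCL20 (chr2:227813723-227813812 on the plus strand). In BIRC3 the matches begin 199 and 135 bases before the start, in CCL22 a pair of overlapping matches begins at 186, and in LTB and CCL20 the match begins at 86 and 79. Capitals again mark the match. These 4 were picked among genes lower in p50, and matches were also found for MCM10 and FCGR2B, which were higher in p50 and are shown beside them (chr10:13161368-13161457 on the plus strand and chr1:161647011-161647100 on the plus strand, beginning 150 and 192 bases before the start). The order of the 4 relative to the control differed: CCL22 was called lower than the control in both knockouts, LTB and CCL20 higher in p52 only, and BIRC3 lower in p50 and higher in p52.
BIRC3: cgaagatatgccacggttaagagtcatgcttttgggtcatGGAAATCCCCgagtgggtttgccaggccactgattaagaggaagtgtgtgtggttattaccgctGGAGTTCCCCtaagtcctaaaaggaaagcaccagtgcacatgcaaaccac
CCL22: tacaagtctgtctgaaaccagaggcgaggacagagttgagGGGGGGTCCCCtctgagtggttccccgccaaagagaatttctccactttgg
LTB: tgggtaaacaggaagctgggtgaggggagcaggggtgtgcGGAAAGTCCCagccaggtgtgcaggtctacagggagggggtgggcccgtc
CCL20: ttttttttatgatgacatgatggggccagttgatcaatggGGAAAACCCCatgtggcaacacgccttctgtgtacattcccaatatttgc
MCM10: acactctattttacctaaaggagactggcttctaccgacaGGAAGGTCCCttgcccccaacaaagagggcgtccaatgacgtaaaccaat
FCGR2B: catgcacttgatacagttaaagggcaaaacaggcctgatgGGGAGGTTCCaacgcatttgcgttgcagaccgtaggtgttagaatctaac

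Among the 2251 called genes with a symbol, groups that did not overlap and a higher mean of at least 100, the 15 with the lowest fold changes were 3.07-fold to 7.61-fold lower in p50 than in p52. All 15 were called higher than the control in p52, against 24.5% of all genes tested. In p50, 8 were called lower than the control and 3 higher, against 19.6% and 17%. The genes were chosen for high p52 relative to p50, with a p52 mean of at least 100. The counts against the control therefore follow in part from the choice and are no separate result. FSTL3 (ENSG00000213658), a secreted follistatin-like protein that binds activin, led the group, at 160.2, 229 and 163 in p50, 1340, 1341 and 1486 in p52 and 691, 796 and 802 in the control (log2 difference -2.93 with SE 0.11 and adjusted p = 8.7e-14 by limma). It was low in p50 and high in p52, with the control between and no overlap. CSF2RB, the shared beta chain of the IL-3, IL-5 and GM-CSF receptors, had the same order at 85.1, 86.4 and 90.7 in p50, 446, 439 and 372 in p52 and 193, 181 and 153 in the control (4.74-fold lower in p50, adjusted p = 4.6e-11). So did OXTR, the oxytocin receptor, at 74.2, 72.7 and 89.8 in p50, 309, 334 and 324 in p52 and 159.9, 203 and 164 in the control (4.06-fold, adjusted p = 3.8e-11).

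In the same order stood ACHE, which encodes acetylcholinesterase, MYO18B, an unconventional myosin, and HAPLN3, a hyaluronan link protein. Their means were 33.2 ± 0.479, 34.2 ± 11.9 and 53.01 ± 6.47 in p50 and 160.0 ± 31.3, 173 ± 27.9 and 168 ± 14.54 in p52. CAV1, which encodes caveolin, and SPTB, a spectrin of the membrane skeleton, were also called lower than the control in p50 (-0.57 and -0.58, adjusted p = 0.019 and 0.04). Those calls were lost without single libraries: for CAV1 without control 3 (0.13), p50 library 1 (0.063) or p50 library 3 (0.051), and for SPTB without control 1 (0.13), control 2 (0.099), p50 library 1 (0.13) or p50 library 2 (0.10). Between the knockouts both were called in each of the settings that tested them.

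Other genes of the group were raised in both knockouts, and more in p52. ATP4A, a subunit of the gastric proton pump, stood at 59.7, 93.7 and 73.5 in p50, 254, 354 and 297 in p52 and 44.1, 27.6 and 22.6 in the control, and both rises were called (1.27 and 3.26). ABCC3, an organic anion transporter, rose from 10.5 ± 3.84 in the control to 34.1 ± 5.01 in p50 and 111 ± 9.75 in p52. L1CAM, a neural cell adhesion molecule, rose from 7.28 ± 1.46 to 17.0 ± 6.29 and 129.7 ± 34.2; its rise in p50 (adjusted p = 0.021) was lost without control 2 (0.071), p50 library 2 (0.11) or p50 library 3 (0.076). In MYRF, a myelin transcription factor, GPC4, a heparan sulfate proteoglycan, CETP, which transfers cholesteryl esters, and FRMPD2 the p50 level did not pass the test against the control. Their means were 122 ± 24.8, 30.4 ± 0.824, 41.8 ± 3.01 and 79.3 ± 13.1 in p50 and 499 ± 7.75, 110.2 ± 20.8, 139.6 ± 24.5 and 254 ± 29.5 in p52. Leaving out a library changed this for a pair of them: p50 was called lower than the control for CETP without control 2 (adjusted p = 0.021) and for MYRF without p50 library 3 (0.038).

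Among the same 2251 genes, the 15 with the highest fold changes were 1.94-fold to 4.90-fold higher in p50 than in p52. Of these, 10 were called higher than the control in p50, against 17% of all genes tested. In p52, 11 were called lower and 1 higher, against 26.4% and 24.5%. These counts too follow in part from the choice of genes, here for high p50 relative to p52. IGFBP3 (ENSG00000146674), which binds insulin-like growth factors, stood at 534, 369 and 427 in p50, 82.3, 89.0 and 95.0 in p52 and 154, 143 and 146 in the control (log2 difference 2.29 with SE 0.14 and adjusted p = 1.1e-10 by limma), the reverse of FSTL3. VAV3, a guanine nucleotide exchange factor, and CD9, a tetraspanin, had the same order, with the control between. VAV3 stood at 548, 463 and 526 in p50, 185, 199 and 207 in p52 and 322, 384 and 293 in the control. CD9 stood at 897, 687 and 763 in p50, 393, 357 and 407 in p52 and 552, 546 and 609 in the control. LIN7A, a scaffold protein, and DGAT2, which makes triglycerides, were higher in p50 by 2.08-fold and 2.03-fold, also with the control between; the rise of DGAT2 over the control in p50 was lost without control 1 (adjusted p = 0.061) or p50 library 2 (0.057).

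In 4 genes the p50 knockout stood above both other groups. AFF3, a nuclear protein of lymphoid cells, was 188 ± 7.43 in p50, 64.6 ± 17.9 in p52 and 82.7 ± 15.5 in the control; p52 was also called lower than the control without control 3 (adjusted p = 0.025) or p52 library 2 (0.0045). F5, coagulation factor V, was 119.8 ± 22.1, 45.2 ± 16.9 and 42.0 ± 3.90, and DGKI, a diacylglycerol kinase, 229.5 ± 27.4, 109 ± 19.9 and 103 ± 0.526. DSC3, a desmosomal cadherin, was 294 ± 25.8, 127 ± 16.9 and 99.6 ± 12.4; its small rise in p52 (0.35, adjusted p = 0.035) was lost without control 2 (0.051), control 3 (0.17) or p52 library 2 (0.19). In 5 others p52 alone was called, lower than the control: C3orf20, P2RX5, an ATP-gated channel, FAM81A, ITGAX, the integrin CD11c, and GRIN2A, a glutamate receptor subunit. C3orf20, for example, read 43.0, 56.6 and 35.3 in p52 against 124, 118 and 135 in p50 and 162, 133 and 104 in the control. SPRR2A, an epithelial envelope protein with near-identical paralogs whose reads may be split, was 358 ± 52.7 in p50 and 139.6 ± 18.9 in p52 (adjusted p = 3.4e-08); its fall below the control in p52 was lost without control 3 or p52 library 2 (0.066 for each). Against the control p50 was called higher for GRIN2A without control 1 (0.0498) and for ITGAX without p50 library 3 (0.030). Both count models also called ITGAX higher in p50 than in the control (adjusted p = 0.047 by edgeR and 0.048 by DESeq2).

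**Figure D3:**
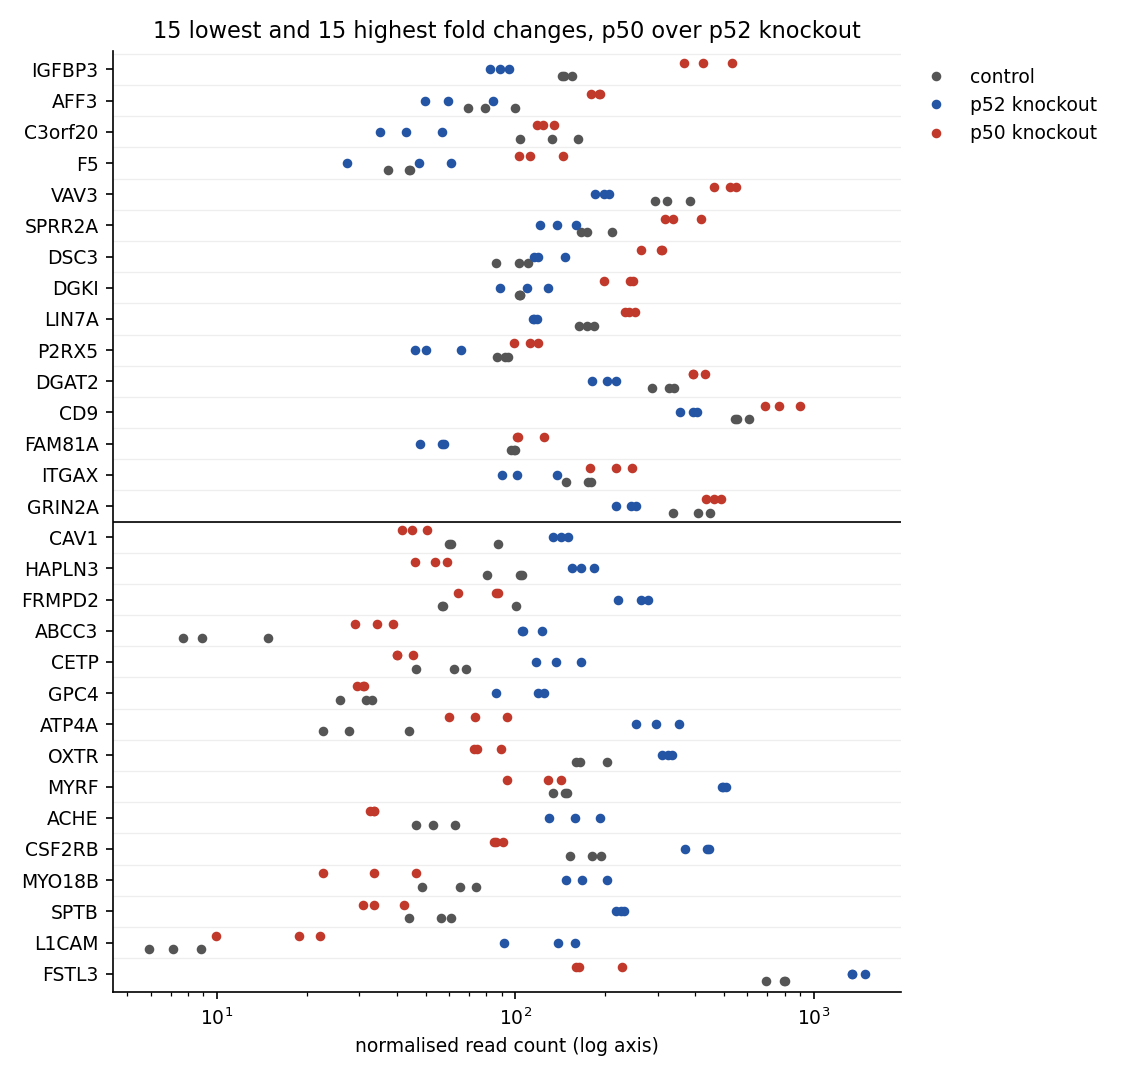
Normalised read count (log axis) of the 15 genes with the highest (top) and the 15 with the lowest (bottom) fold changes between the knockouts, among called genes whose groups did not overlap and whose higher mean was at least 100; each point is 1 library. In the lower block every p52 point (blue) lies to the right of every p50 point (red), as in FSTL3, where p52 libraries lie at 1340 to 1486 and p50 libraries at 160 to 229, and in the upper block the colours are exchanged.

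The rule's threshold was not a gap in the data: the next gene below the 15 lowest was THY1 at -1.60, beside CAV1 at -1.62, and the next after the 15 highest was FAM135B at 0.96, beside GRIN2A at 0.96. A further 3 genes had p-values among the 6 smallest without being among the 30. VIM, the intermediate filament vimentin, stood at 1476, 1672 and 1596 in p50, 4419, 4348 and 4715 in p52 and 3286, 3272 and 3831 in the control, 2.84-fold lower in p50 than in p52 (log2 difference -1.51 with SE 0.07 and adjusted p = 2.5e-12 by limma). ADAM8, a cell-surface metalloprotease, read 1536, 1517 and 1456 in p50, 3285, 3397 and 3124 in p52 and 1769.9, 1952 and 1838 in the control (adjusted p = 1.9e-11). BHLHE22, a helix-loop-helix repressor, read 662, 706 and 709 in p50, 1753, 1645 and 1659 in p52 and 1245, 1268 and 1301 in the control (adjusted p = 2e-11). All 3 were low in p50, high in p52 and between in the control.

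Genes of B-cell activation and costimulation were lower in p50 in 18 of 32 members and higher in 1 (median -0.29; 11% and 11.2% of all genes). Relative to the control the list mean stood at 0.03, 0.09 and 0.10 in p50 libraries and 0.34, 0.41 and 0.47 in p52 libraries. Called higher than the control were 21 members in p52 and 10 in p50, against 24.5% and 17% of all genes. IL10RA, the IL-10 receptor, was 887, 1022 and 1005 in p50, 2050, 2089.8 and 1971 in p52 and 1332, 1418 and 1337 in the control, 2.10-fold lower in p50 than in p52 (adjusted p = 4.5e-10 by limma). ICOSLG, the ligand of the T-cell costimulator ICOS, was 3154, 3252 and 3210.1 in p50, 5748, 5305 and 4455 in p52 and 3894, 3794 and 3577 in the control (adjusted p = 6.3e-07). Both were below the control in p50 and above it in p52. The single higher member was lost without p50 library 2 or 3 or p52 library 1 or 2.

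Chemokine receptors, adhesion molecules and cytoskeletal genes were lower in p50 in 11 of 35 members and higher in 4, with a median of -0.07. CXCR4, the CXCL12 receptor, was low in p50 alone: 1747, 2000.3 and 2024 in p50, 3225, 3659 and 3174 in p52 and 3095, 3516 and 3806 in the control (log2 difference -0.80 with SE 0.08 and adjusted p = 2.2e-07). CCR7, which guides B cells to T-cell zones, was above the control in both knockouts, at 9633, 10533 and 10983 in p50, 14329, 14403 and 13734 in p52 and 8544, 8103 and 8725 in the control, and 1.36-fold lower in p50 than in p52 (adjusted p = 5.5e-06). With VIM and CD44, given above, these are the list's 4 named members. Of 30 BCL2 family members and apoptosis regulators 6 were lower in p50 and 1 was higher (2 without p52 library 3). FAS, the death receptor, averaged 1937 ± 165 in p50 and 2911 ± 297 in p52 (adjusted p = 1e-05), and CFLAR, which blocks caspase-8, 2657 ± 234 and 3764 ± 105.1 (adjusted p = 2.1e-06). PMAIP1, the pro-apoptotic NOXA, was the higher one, at 6352 ± 317 in p50 and 4676 ± 420.3 in p52 (adjusted p = 3.6e-05).

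Of 29 B-cell identity genes 5 were higher and 6 lower in p50, against 11.2% and 11% of all genes (2 higher without p50 library 1, 3 without p50 library 3 and 3 without p52 library 2). FCGR2B, the inhibitory Fc receptor, was 469, 441 and 417 in p50, 246, 277 and 288 in p52 and 324, 357 and 388 in the control, 1.64-fold higher in p50 than in p52 (adjusted p = 1.2e-05 by limma). IKZF1, the lymphoid regulator Ikaros, averaged 3384 ± 202 in p50 and 2518 ± 202 in p52 (adjusted p = 0.00011). The factor SPIB and the kinase BLK were lower in p50, at 961 ± 27.5 and 5773 ± 447 against 1330.5 ± 15.03 and 7586 ± 323 in p52 (adjusted p = 1.9e-05 and 0.00011).

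Of 22 germinal-centre genes 2 were higher and 4 lower in p50, against 11.2% and 11% of all genes. HHEX, a homeobox regulator, stood at 469.6, 438 and 457 in p50, 246, 279.7 and 267 in p52 and 567, 557 and 512 in the control (1.72-fold higher in p50 than in p52, adjusted p = 2.1e-05). Its order was p52, p50, control with no overlap. EZH2, the histone methyltransferase of dividing B cells, averaged 1839 ± 42.0 in p50, 1447 ± 66.7 in p52 and 2574 ± 93.2 in the control (adjusted p = 0.00021 between the knockouts). In the plasma-cell programme 3 of 26 genes were higher and 3 lower in p50, near the 11.2% and 11% of all genes (6 higher without p52 library 3). Each knockout was, however, lower than the control in most of it. Called lower than the control were 16 members in p50 and 17 in p52, against 19.6% and 26.4% of all genes. ELL2, an elongation factor for immunoglobulin transcripts, averaged 1889.9 ± 160.3 in p50, 2329 ± 223 in p52 and 2871 ± 138 in the control (adjusted p = 0.005 between the knockouts), and SLAMF7, a plasma-cell receptor, 4245 ± 251, 5372 ± 376 and 3755 ± 52.2 (adjusted p = 0.00077). Both are from the 3 members lower in p50. Unlike most of the list, SLAMF7 averaged above the control in both knockouts.

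Of 20 genes used by the EBV factor EBNA2 and the Notch pathway 3 were higher and 6 lower in p50. MYC, the growth regulator, was among the 3 higher: 9846, 7094 and 7645 in p50, 6446, 5473 and 5563 in p52 and 8017, 7339 and 7983 in the control. P52 was the low group, and MYC was 1.40-fold higher in p50 (log2 difference 0.48 with SE 0.09 and adjusted p = 0.00036 by limma), while p50 was not called against the control (0.06, adjusted p = 0.62). DTX1, a Notch-pathway ligase, and FGR, a Src-family kinase, were lower in p50, at 742 ± 24.9 and 1738 ± 41.2 against 1018 ± 50.7 and 2282 ± 30.7 in p52 (adjusted p = 3.8e-05 and 2e-05).

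Growth and cell-cycle genes were called higher in p50 than in p52 in one direction only. Of 28 MYC and ribosome biogenesis targets 17 were higher and 0 lower (0 lower by edgeR and DESeq2 and 0 at an unadjusted p under 0.05, against 16.1% of all genes), with a median of 0.25. Of 29 DNA replication genes 20 were higher and 0 lower (0 by each of the same counts; median 0.29), and of 32 mitosis genes 12 were higher and 0 lower (likewise 0; median 0.17). The mitosis count was 4 without p50 library 1 and 5 without p52 library 2. These lists lay below the control in both knockouts. The replication list averaged -0.34, -0.47 and -0.45 relative to the control in the p50 libraries and -0.67, -0.72 and -0.69 in the p52 libraries, so no p50 library reached a p52 library. For mitosis the values were -0.30, -0.51 and -0.38 and -0.46, -0.62 and -0.58, and p50 library 2 overlapped the p52 range. Against the control 28 and 29 replication genes and 29 and 31 mitosis genes were called lower in p50 and p52, and 16 and 23 of the MYC targets. Over all genes tested 19.6% were called lower than the control in p50 and 26.4% in p52.

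MCM10 and CDC45, which act with the replicative helicase, had 1 order. MCM10 read 1194, 1055 and 1128 in p50, 804, 806 and 787 in p52 and 1542, 1717 and 1568 in the control. CDC45 read 1426, 1228 and 1322 in p50, 902, 967 and 986 in p52 and 1870.2, 1952 and 2143 in the control, so the order was p52, p50, control with no overlap (adjusted p = 5.5e-06 and 2e-05 between the knockouts by limma). DTL, a ligase adaptor of S phase, averaged 2608 ± 279 in p50, 1764 ± 139.5 in p52 and 3226 ± 191 in the control (adjusted p = 9e-06). The spindle factor TPX2 averaged 5301 ± 318, 4287 ± 282 and 6505 ± 129.6 (adjusted p = 0.00063), and the mitotic kinase AURKA 2036 ± 43.2, 1672 ± 25.5 and 2763 ± 184 (adjusted p = 0.00096). Of the MYC list, UTP20 and RRP12, which process ribosomal RNA, averaged 2218 ± 9.81 and 2195 ± 82.6 in p50, 1499 ± 201 and 1616 ± 81.9 in p52 and 2276 ± 353 and 2299.5 ± 180.4 in the control. For this pair only p52 was called lower than the control.

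Histone genes of the replication-dependent clusters were higher in p50 in 10 of 17 members and lower in 0 (0 by edgeR, DESeq2 and unadjusted), with the highest median of any list at 0.68. Most of their transcripts carry no poly(A) tail, so a poly(A) library holds only part of them, and the genes are near-identical copies whose reads may be split. HIST1H2BJ stood at 680.4, 449 and 622 in p50, 292, 316 and 284 in p52 and 532, 556 and 657 in the control (log2 difference 0.95 with SE 0.13 and adjusted p = 1.4e-05 by limma), and HIST1H2AC at 1090.3, 875 and 930.4 in p50, 513, 470.4 and 544 in p52 and 775, 802 and 896 in the control (adjusted p = 1.7e-06). In both the p52 libraries were the low ones. The linker histone HIST1H1C differed: p52, at 6823, 6421 and 7562, lay with the control, at 6544, 6341 and 7608, and p50 was high, at 12550, 10601 and 10550 (adjusted p = 0.00098 between the knockouts).

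Of 28 genes of the ATF4 amino-acid response 12 were higher and 2 lower in p50. PHGDH, the first enzyme of serine synthesis, stood at 940.1, 794 and 858 in p50, 535, 539 and 536 in p52 and 742, 714 and 796 in the control (1.61-fold higher in p50 than in p52, adjusted p = 3.2e-07 by limma). WARS and GARS, tRNA synthetases for tryptophan and glycine, averaged 6439 ± 976 and 6716 ± 258 in p50 and 4363 ± 196 and 5341 ± 93.9 in p52 (adjusted p = 1.5e-05 and 8.7e-05). Of 18 chaperones of the endoplasmic reticulum 9 were higher and 4 lower in p50 (2 lower without p50 library 1 or p52 library 2). CALR, calreticulin, averaged 17081 ± 717 in p50, 14052 ± 106 in p52 and 26222 ± 2113 in the control (adjusted p = 0.0045), and the disulfide isomerase PDIA6 6852 ± 294, 5697 ± 277 and 9569 ± 250 (adjusted p = 0.0015). HERPUD1, a factor of protein degradation at the same membrane, was lower in p50, at 3272 ± 260.5 against 4078 ± 199 (adjusted p = 0.00096).

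Heat-shock proteins were higher in p50 in 8 of 20 members and lower in 1 (5 higher without p50 library 3, p52 library 1 or p52 library 2). CHORDC1, a co-chaperone of HSP90, stood at 903, 999 and 1027 in p50, 566, 713 and 769 in p52 and 1341, 1638 and 1604 in the control (adjusted p = 0.00042), and the constitutive chaperone HSPA8 at 35141, 34376 and 37129 in p50, 25433, 26977 and 27964 in p52 and 44799, 49424 and 54630 in the control (adjusted p = 0.00045 by limma). The order was again p52, p50, control with no overlap. The small chaperone HSPB1 was the lower one, at 4925 ± 504 in p50 and 6199 ± 467 in p52 (adjusted p = 0.0066, and 0.055 without p50 library 3, the highest over the settings tried, which went down to 7e-04).

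Interferon-stimulated genes were lower in p50 in 16 of 40 members and higher in 2 (4 without p50 library 1). The list mean relative to the control was -0.43, -0.28 and -0.28 in p50 libraries and -0.20, -0.15 and -0.05 in p52 libraries. OAS3, which makes the activator of RNase L, was low in p50 alone, at 62.4, 79.0 and 62.9 in p50, 128, 131 and 114 in p52 and 122, 128 and 111 in the control (1.82-fold lower in p50 than in p52, adjusted p = 3.4e-05 by limma). LGALS3BP, a secreted glycoprotein, was also lowest in p50, at 21.7, 32.7 and 26.1 in p50, 65.6, 74.0 and 74.9 in p52 and 52.9, 47.3 and 64.0 in the control (adjusted p = 3.3e-06). GBP4, a guanylate-binding protein, was raised in both knockouts and more in p52, at 388 ± 29.6 in p50, 622 ± 62.1 in p52 and 323 ± 18.1 in the control (adjusted p = 4.4e-06 between the knockouts). USP18, which restrains interferon receptors, was higher in p50, at 366 ± 17.7 against 239 ± 20.8 (adjusted p = 1.7e-05).

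Of 23 genes of MHC class I presentation 9 were lower and 2 higher in p50. TAP1, the peptide transporter, stood at 2334, 2508 and 2504 in p50, 3304, 3382 and 3373 in p52 and 2668, 2788 and 2875 in the control, with no overlap (log2 difference -0.45 with SE 0.05 and adjusted p = 1.3e-06 by limma). Its promoter window (chr6:32853727-32853816 on the minus strand) is shown because 9 of 25 promoters of this list (36%; 18 genes) held a kB match; the match, in capitals, begins 72 bases before the start.
TAP1: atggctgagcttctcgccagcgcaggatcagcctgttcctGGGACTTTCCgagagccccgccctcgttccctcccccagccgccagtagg

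HLA-F averaged 1756 ± 32.4 in p50, 2365 ± 294 in p52 and 1613 ± 175 in the control (adjusted p = 0.00047 between the knockouts by limma). Class I genes are similar to one another and vary between people, so their reads may be shared or lost in counting. Among 21 genes of MHC class II presentation 2 were higher and 2 lower in p50, near the shares over all genes (11.2% and 11%). HLA-DMB, which helps load peptides, stood at 1604, 1479.9 and 1513 in p50, 1095, 1116 and 1184 in p52 and 1767, 1874 and 2268 in the control (adjusted p = 0.00041 by limma). The other 3 class II calls, HLA-DMA (0.22), HLA-DQA1 (-0.22) and the regulator RFX5 (-0.18), were each lost without at least 1 library, so that leaving out p50 library 1, 2 or 3 or p52 library 2 left 1 gene in place of 2 in at least one direction. The highest adjusted p were 0.067 for HLA-DMA (without p52 library 2), 0.077 for HLA-DQA1 (without p50 library 2) and 0.12 for RFX5 (without p52 library 2), and the lowest over all settings 0.0035, 0.0048 and 0.0092.

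Immediate-early and AP-1 genes were lower in p50 in 17 of 36 members and higher in 2 (0 higher without p50 library 1, 1 without p50 library 3 or p52 library 2), with a median of -0.33. MAFF, a small Maf factor, was high in p52 alone: 66.0, 69.5 and 78.4 in p50, 139.6, 178 and 164 in p52 and 81.6, 86.8 and 69.2 in the control (log2 difference -1.16 with SE 0.15 and adjusted p = 7.7e-06 by limma). DUSP4, a phosphatase of MAP kinases, was low in p50 alone, at 5814, 5369 and 5243 in p50, 8944, 8587 and 7471 in p52 and 8446, 9706 and 9142 in the control (adjusted p = 4.9e-06). JUNB, an AP-1 subunit, was below the control in both and lower in p50, at 3029.6 ± 190.1 in p50, 4241 ± 322 in p52 and 5178 ± 490.1 in the control (adjusted p = 0.00028 between the knockouts).

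Of 31 glycolysis and hypoxia genes 10 were lower in p50 (6 without p50 library 1) and 0 higher (0 by edgeR and DESeq2, 1 unadjusted). ALDOC, an aldolase, rose over the control in both knockouts, to 2506, 2857 and 3016 in p50 and 4402, 4288 and 4303 in p52 from 2159, 1404 and 1841 (log2 difference -0.64 with SE 0.11 and adjusted p = 0.00013 between the knockouts), and NDRG1, a hypoxia-induced gene, averaged 1156 ± 145, 1587 ± 97.1 and 720.3 ± 135 in p50, p52 and control (adjusted p = 0.0022). PFKFB3, which sets the rate of glycolysis, was raised in p52 alone, at 5039 ± 489.7, 7325 ± 906 and 4981 ± 591 (adjusted p = 0.00052). Of 25 cholesterol and fatty acid synthesis genes 5 were lower in p50 and 0 higher (1 by edgeR, 1 by DESeq2, 2 unadjusted, 1 without p50 library 2 and 2 without p52 library 1). INSIG1, the sterol sensor partner, averaged 3288 ± 67.9 in p50, 4394 ± 243 in p52 and 4737 ± 185 in the control (adjusted p = 0.00021), and MSMO1, a sterol oxidase, 2099 ± 60.5, 2747 ± 179.8 and 2624 ± 199 (adjusted p = 0.0011).

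Targets of p53 were higher in p50 in 4 of 29 and lower in 5, against 11.2% and 11% of all genes, with list means of 0.18, 0.35 and 0.29 in p50 and 0.23, 0.37 and 0.34 in p52 relative to the control. TP53INP1, a stress-induced nuclear protein, rose in both knockouts and more in p52: 961, 1581 and 1488 in p50, 2135, 2742 and 2272 in p52 and 807, 617 and 547 in the control (log2 difference -0.85 with SE 0.15 and adjusted p = 0.00021 between the knockouts by limma). SPATA18, a mitochondrial quality-control gene, was raised in p52 alone, at 47.3 ± 4.90, 80.8 ± 5.10 and 42.6 ± 7.27 (adjusted p = 0.00089).

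Calls in the mitochondrial lists depended on single libraries, and ribosomal protein genes were not called. Of 13 mitochondrially encoded transcripts 1 was lower in p50 and 0 higher (0 by edgeR, DESeq2 and unadjusted), although the median was -0.44 and 8 were lower at an unadjusted p. The list mean was -0.35, -1.37 and -0.48 relative to the control in the p50 libraries, with library 2 far below the others, and -0.01, -0.44 and -0.46 in the p52 libraries. Against the control 12 of 13 were called lower in p50 (3 without p50 library 2, and 9 to 13 without any other library) and 1 in p52 (0 to 5 without 1 library). The shares of all genes called lower than the control were 19.6% in p50 and 26.4% in p52. Between the knockouts the count was 6 without p50 library 1, 0 without p50 library 2, 3 without p50 library 3, 0 without p52 library 1, and 3 without p52 library 2 or 3. The single call was MT-ND4L, a complex I subunit whose gene overlaps MT-ND4, at 13965 ± 2199.7 in p50 and 17908 ± 2429 in p52 (adjusted p = 0.016, 0.12 without p50 library 2 and 0.094 without p52 library 1, with a range of 0.0039 to 0.12).

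In the nuclear-encoded respiratory chain 1 of 32 members, CYCS, was called higher (0.22, adjusted p = 0.044) and 0 lower (0 by edgeR, DESeq2 and unadjusted). CYCS was not called by edgeR (0.053) or DESeq2 (0.056) or without any one of p50 libraries 1, 2 or 3 (0.079, 0.092 and 0.10) or p52 libraries 1 or 2 (0.21 and 0.17), with a range of 8.1e-04 to 0.21. Without p52 library 3, 6 members were called higher, and without any other of the 6 libraries 0. Leaving out p52 library 1 gave 1 lower member. The list means of the p52 libraries were -0.24, -0.18 and 0.13. Of 42 cytosolic ribosomal proteins 0 were called in either direction by limma, edgeR or DESeq2 and 0 at an unadjusted p under 0.05. Their mean was -0.03, 0.05 and 0.34 in the p52 libraries, where library 3 was high, and -0.01, 0.08 and 0.06 in p50.

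**Figure D4:**
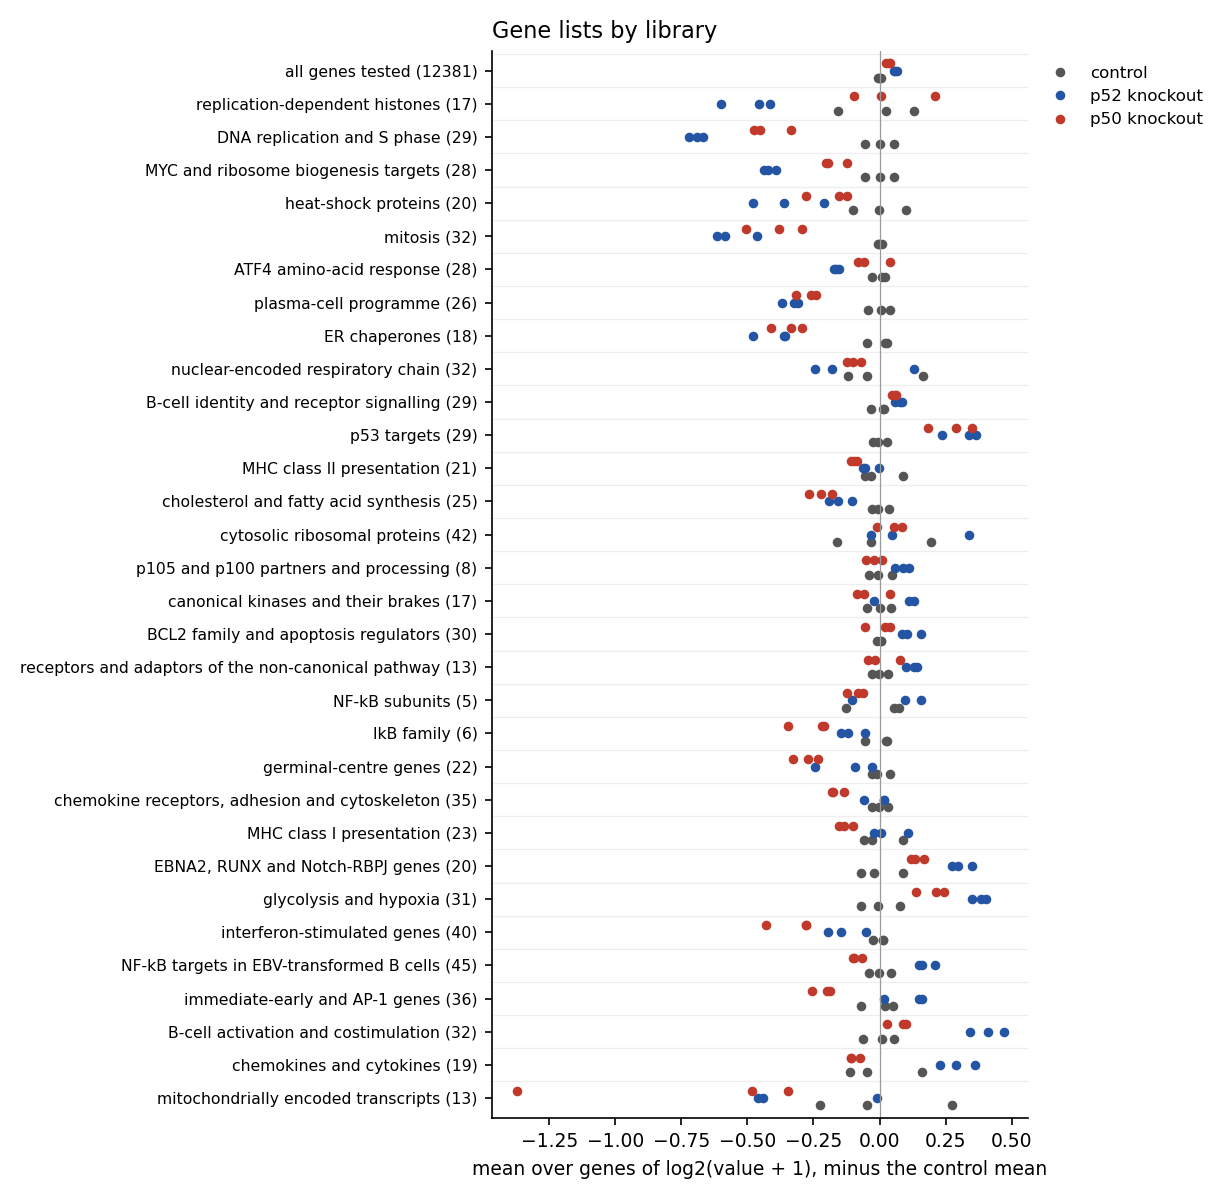
Mean over the tested genes of each list (number in parentheses) of log2(value + 1), minus the mean of the 3 control libraries. Each point is 1 library, and lists are ordered by the mean of the p50 libraries minus the mean of the p52 libraries. Replication genes lie at -0.47 to -0.34 in p50 and -0.72 to -0.67 in p52, chemokines and cytokines at -0.11 to -0.07 and 0.23 to 0.36, and the isolated red point at -1.37 is p50 library 2 in the mitochondrial list.

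Markers of other cell types were mostly near the floor, but not all. None was at 0 in all 9 libraries, while CD3D, CD14 and CD68 stayed at or below 1.63, 3.16 and 2.59. Of 5 tested T and NK markers (11 measured) 1, CD4, was lower in p50, at 3.62, 7.37 and 4.08 against 8.35, 18.5 and 11.5 in p52 (adjusted p = 0.012 by limma, 0.063 without p50 library 1 and 0.092 without p52 library 2, with a range of 0.0056 to 0.092). The summed level of that list was 467 to 509.8 in p50, 516 to 592 in p52 and 441 to 598 in the control, mostly NKG7, at 353 to 513.

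Of 3 tested monocyte markers (10 measured) VCAN was lower in p50, at 13.6, 28.4 and 30.2 against 60.9, 58.9 and 42.5 (adjusted p = 0.0026), and the list's summed level, mostly CSF1R, was 716 to 783 in p50, 698 to 823 in p52 and 474 to 497 in the control. Of 4 tested fibroblast and epithelial markers (9 measured) COL1A1 was lower in p50, at 803 ± 157 against 1330.5 ± 95.9 (adjusted p = 8.2e-05), with its partner chain COL1A2 at or below 3.31, and CDH1 stood at 112.5 to 244. That list summed to 981 to 1317 in p50, 1534 to 1706 in p52 and 1342 to 1503 in the control, and 1 member was called higher without p52 library 3. PDGFRB was also lower (-0.96, adjusted p = 0.024), a call lost without p50 library 1 (0.096), p50 library 3 (0.062), p52 library 2 (0.065) or p52 library 3 (0.093), with a range of 0.0041 to 0.096. None of 4 red-cell and platelet markers passed the filter. The part of these markers in the results above was not tested.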

How the data were processed

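Polyadenylated RNA of 18 GM12878 libraries (6 groups of 3) was sequenced by the authors. For the deposited files the submitters' processing notes name the build GRCh37 and the tools STAR 2.5.2b, featureCounts 1.5.1 and DESeq2 1.14.1, without their roles. Not given in the sources used here: annotation release and use of strand. Overlapping or antisense genes are therefore not separated. The deposited values are a signal, a read count per gene divided by a factor per library; all of 308790 values were whole reads within 0.0001 of a read once that factor was recovered.

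Genes with a mean of at least 10 over 18 libraries were tested on log2(value + 1), a scale that understates the change of low genes, with limma 3.58.1 (trend) in R 4.3.3: 1 fit of all libraries, 2-sided, Benjamini-Hochberg adjusted over all genes, called under 0.05. EdgeR 4.0.16 and DESeq2 1.42.0 on the recovered reads were alternatives. Levels are normalised read counts as mean ± SD (n = 3), not per length, so levels of different genes are not compared. A library mean of a list is on the log2 scale.

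Named genes were the subunits, the IkB family and the precursors' partners; the 15 highest and 15 lowest called fold changes with groups that did not overlap and a higher mean of at least 100; per other list the called members of smallest p, at most 4; and the 6 smallest p with a mean of at least 100. The 35 lists held 904 entries, of which 845 matched and 783 were tested. Lists can share genes, as with BIRC3 and CCL22, so entries are not distinct genes and counts of different lists are not separate results. Members and lists were chosen with earlier results of these data known. In a test on simulated data of 12381 genes for this comparison, 79 of 100 genes changed by 1.5-fold and 89 of 100 changed by 2-fold were recovered, with 10 unchanged genes called. The simulated counts were independent between genes and lacked the deviations of single libraries described above. These rates may therefore not hold for the real data. Some named genes are not reported here. Other settings are given in the closing section.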

Additional observations from a re-analysis of the deposited data

How the results depend on the processing

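The count of genes called between the knockouts (2749) ran from 1923 to 3052 on leaving out 1 library, lowest without p50 library 1 and highest without control 3. It was 2012 without p52 library 2, 1895 in a fit of 9 libraries and 1898 in a fit of 6. Several list counts also fell in the fit of 6. Members higher in p50 went from 12 to 5 for mitosis, from 9 to 5 for chaperones of the endoplasmic reticulum and from 8 to 3 for heat-shock proteins. EdgeR called 2875 genes, DESeq2 2869, TMM scaling 2773, quantile normalisation 2879, no filter on low values 2655 and a correction for transcript length 3235. None of the 2749 calls had the opposite sign in any of these. The share called higher in p50 was 50.45%, and 43.52% in the fit of 6. With a replicate block 3086 genes were called, 2740 of them shared; same-numbered p50 and p52 libraries correlated at 0.231, 0.060 and -0.005, and the labels give the number no other meaning, so the libraries were not taken as paired. With the block 4870 genes were called for p50 against the control and 6557 for p52. The 292 genes at 2-fold or more became 76 with a minimum mean of 100 and 445 with no filter. Of 142 named genes 15 had another call between the knockouts in at least 1 setting. The cause of these changes was not tested. Low counts limit the markers of other cell types.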

Other observations

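By annotated class, 22.68% of 11781 protein-coding genes were called between the knockouts. Of 180 lincRNA genes 9 were higher and 24 lower in p50, and of 230 antisense genes 10 were higher and 15 lower. The classes differ in level: their median normalised read counts were 751.7, 49.02 and 31.46 for protein-coding, lincRNA and antisense genes. Without stated use of strand, reads of an antisense gene and its partner cannot be told apart.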
